A study of Mus musculus with 2 samples.

Results

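The regions described here are the accessible regions of mouse CFU-E cells that lay outside every annotated gene, more than 1 kb and at most 100 kb from the nearest start of a protein-coding gene. They were chosen by the position of their midpoint alone, from the authors' series list of peaks thresholded on IDR (irreproducible discovery rate, a measure of how well a peak's rank repeats between sets), after overlapping records were merged. Of the 24394 accessible regions of the series, 4690 met the rule (19.2%, Wilson 95% interval 18.7 to 19.7%). Their median width was 447 bp, and together they covered 2.47 Mb of the 665.2 Mb of gene-free sequence that the rule made available. The median distance to the nearest coding start was 13.0 kb, with an interquartile range of 6.04 to 27.2 kb. For comparison, the series held 6458 distal regions in introns and 356 intergenic regions beyond 100 kb.

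CFU-E (colony-forming unit erythroid) cells are progenitors committed to red cells that depend on erythropoietin. ATAC-seq measured accessibility through the insertion of adapters by the Tn5 transposase into DNA free of nucleosomes. The study held 1 group of 2 libraries of 50000 primary cells each, labelled as replicates 1 and 2, from adult male C57BL/6J mice of 5 to 6 weeks. Both libraries carried 1 donor identifier and separate biosample entries, and no treatment or genotype contrast was made, so each comparison below is between regions within this cell type. Whether the libraries came from separate animals cannot be told from the labels.

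Intergenic accessible regions include enhancers, which bind lineage transcription factors and act on promoters at a distance, and insulator or loop-anchor sites bound by CTCF. In erythroid cells GATA1 binds GATA words, often beside a partial E-box recognised by the TAL1 complex. KLF1 binds CACCC-type words, and NF-E2 and related factors, dimers of a cap'n'collar protein and a small MAF protein, bind an extended AP-1 word. The nearest gene is a label of position here, since enhancers can act on other genes.

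Sequences of 10 of these regions show the words on which the motif results rest. Each is the summit (the base of highest signal in the authors' record of highest fold) with 100 bases to each side, read from GRCm38 (mm10) and named by the nearest coding gene. They were chosen after their values were seen, as the strongest regions of named erythroid and iron genes that held a match. Capitals mark matches on either strand to the GATA words (AGATAA, where T may stand first and G last), to the CTG that lies 7, 8 or 9 bases before such a word (the GATA pair), to the KLF words (CCACACCC, CCACGCCC, CCCCACCC, CCCCGCCC), to the CTCF consensus, to the NF-E2 words (TGCTGACTCA, TGCTGAGTCA) and to the AP-1 word inside them (TGAGTCA, whose reverse complement is the other form). A match is a run of letters and not a measured binding site.
Hmox1, chr8:75083894-75084094, + strand: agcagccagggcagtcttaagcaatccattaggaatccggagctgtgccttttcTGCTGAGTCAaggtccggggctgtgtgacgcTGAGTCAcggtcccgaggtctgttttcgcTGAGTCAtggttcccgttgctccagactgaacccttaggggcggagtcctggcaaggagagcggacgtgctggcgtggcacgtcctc
Ftl1, chr7:45460897-45461097, + strand: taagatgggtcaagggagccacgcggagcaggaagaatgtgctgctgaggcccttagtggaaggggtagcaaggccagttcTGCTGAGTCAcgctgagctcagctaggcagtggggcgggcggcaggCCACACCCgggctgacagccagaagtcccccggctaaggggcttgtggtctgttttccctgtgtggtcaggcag
Fth1, chr19:9978476-9978676, + strand: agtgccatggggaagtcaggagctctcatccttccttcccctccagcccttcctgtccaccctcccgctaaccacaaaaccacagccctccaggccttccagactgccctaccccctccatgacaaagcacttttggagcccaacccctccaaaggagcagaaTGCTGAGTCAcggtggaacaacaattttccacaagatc
Hbb-y, chr7:103859211-103859411, + strand: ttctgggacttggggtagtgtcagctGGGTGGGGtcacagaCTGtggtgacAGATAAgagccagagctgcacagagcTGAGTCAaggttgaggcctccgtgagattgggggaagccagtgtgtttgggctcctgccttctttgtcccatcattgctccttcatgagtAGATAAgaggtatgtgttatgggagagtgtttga
Alas2, chrX:150516116-150516316, + strand: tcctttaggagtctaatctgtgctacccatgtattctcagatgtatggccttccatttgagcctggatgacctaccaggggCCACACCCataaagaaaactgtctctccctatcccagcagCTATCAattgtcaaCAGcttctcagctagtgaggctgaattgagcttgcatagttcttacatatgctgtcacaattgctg
Myb, chr10:21196676-21196876, + strand: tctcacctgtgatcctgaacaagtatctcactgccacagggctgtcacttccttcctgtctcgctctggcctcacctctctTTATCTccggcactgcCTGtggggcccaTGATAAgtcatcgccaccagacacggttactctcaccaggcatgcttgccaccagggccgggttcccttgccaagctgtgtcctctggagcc
Cpox, chr16:58661952-58662152, + strand: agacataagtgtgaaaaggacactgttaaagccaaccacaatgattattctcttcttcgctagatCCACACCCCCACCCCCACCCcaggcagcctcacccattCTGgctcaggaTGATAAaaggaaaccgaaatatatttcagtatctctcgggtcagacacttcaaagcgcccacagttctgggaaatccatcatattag
Tfrc, chr16:32597951-32598151, + strand: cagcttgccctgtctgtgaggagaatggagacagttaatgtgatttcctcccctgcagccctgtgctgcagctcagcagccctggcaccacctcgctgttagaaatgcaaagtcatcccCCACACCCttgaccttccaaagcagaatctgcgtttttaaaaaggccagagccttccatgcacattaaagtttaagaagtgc
Klf3, chr5:64864750-64864950, + strand: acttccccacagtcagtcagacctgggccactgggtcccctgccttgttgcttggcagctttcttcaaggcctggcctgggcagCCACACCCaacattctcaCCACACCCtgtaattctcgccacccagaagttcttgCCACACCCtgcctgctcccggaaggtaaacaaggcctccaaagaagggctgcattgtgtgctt
Jak2, chr19:29203448-29203648, + strand: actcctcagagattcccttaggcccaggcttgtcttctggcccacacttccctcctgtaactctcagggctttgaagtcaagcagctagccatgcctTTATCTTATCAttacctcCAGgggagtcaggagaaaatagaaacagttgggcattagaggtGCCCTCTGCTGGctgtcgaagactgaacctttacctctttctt
The 3 regions of iron genes that store iron or break down haem (Hmox1, Ftl1, Fth1) each held an NF-E2 word and no GATA word. Those of Hbb-y, Alas2, Myb, Cpox and Jak2 held a GATA pair. The windows were chosen with their matches known, so they give no contrast between kinds of gene. Over all intergenic regions of the lists used below, GATA pairs lay in 3 of 34 for erythroid regulators and 1 of 10 for globin genes. They lay in 3 of 7 for haem synthesis and 1 of 12 for erythropoietin signalling, beside 11.9% of all intergenic regions. The Hmox1 window held 3 AP-1 words, 1 of them inside the NF-E2 word, and the Klf3 window held 3 KLF words.

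The regions were densest close to genes. Within 1 to 10 kb of a coding start 1903 regions were found, or 13.2 per Mb of available sequence (exact Poisson 95% interval 12.6 to 13.8). At 10 to 50 kb there were 2303 regions (6.96 per Mb, 6.68 to 7.25), and at 50 to 100 kb there were 484 (2.55 per Mb, 2.33 to 2.79). The density nearest to genes was thus 5.16 times that of the farthest class. It was 3.40 times among the 1826 intergenic regions in the upper 50% of the whole series by fold. The number of regions depends on the list: 3102 met the rule in the list called on replicate 1 alone, 2924 in that of replicate 2 and 9363 in the authors' less strict overlap list. In the list of replicate 1 the densities were 8.82, 4.52 and 1.75 per Mb in order of distance, and in the list of replicate 2 they were 8.48, 4.23 and 1.57. Both libraries gave the same order, with intervals that did not overlap between classes. These intervals cover counting error over regions only, since the read depth behind each list is unknown. Among chromosomes, density ran from 13.4 per Mb on chromosome 11 to 2.12 on X and 0.247 on Y, where 6 regions were found.

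Over all distances, upstream and downstream sequence held regions nearly in proportion to the sequence available. Upstream of the nearest start lay 2995 regions, 63.9% (62.5 to 65.2%), against 63.1% of the available sequence. Downstream sequence that is free of genes begins only past the end of the gene body, so its share is small near the start. At 1 to 10 kb the density was 12.7 per Mb upstream and 14.7 downstream, and at 10 to 50 kb it was 6.49 and 7.71. At 50 to 100 kb it was 2.69 upstream and 2.37 downstream, with overlapping intervals. Of the regions at 1 to 10 kb 72.8% lay upstream (70.8 to 74.8%), against 75.7% of the sequence. Replicate 1's own list gave 72.8% there (70.3 to 75.2%), below the share of the sequence, and replicate 2's gave 74.1% (71.6 to 76.5%), an interval that held it. At 10 to 50 kb 57.4% lay upstream (55.3 to 59.4%) against 61.5% of the sequence. The lists of replicates 1 and 2 gave 59.5% and 59.8% at 10 to 50 kb, both with intervals that held the 61.5%.

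**Figure D1:**
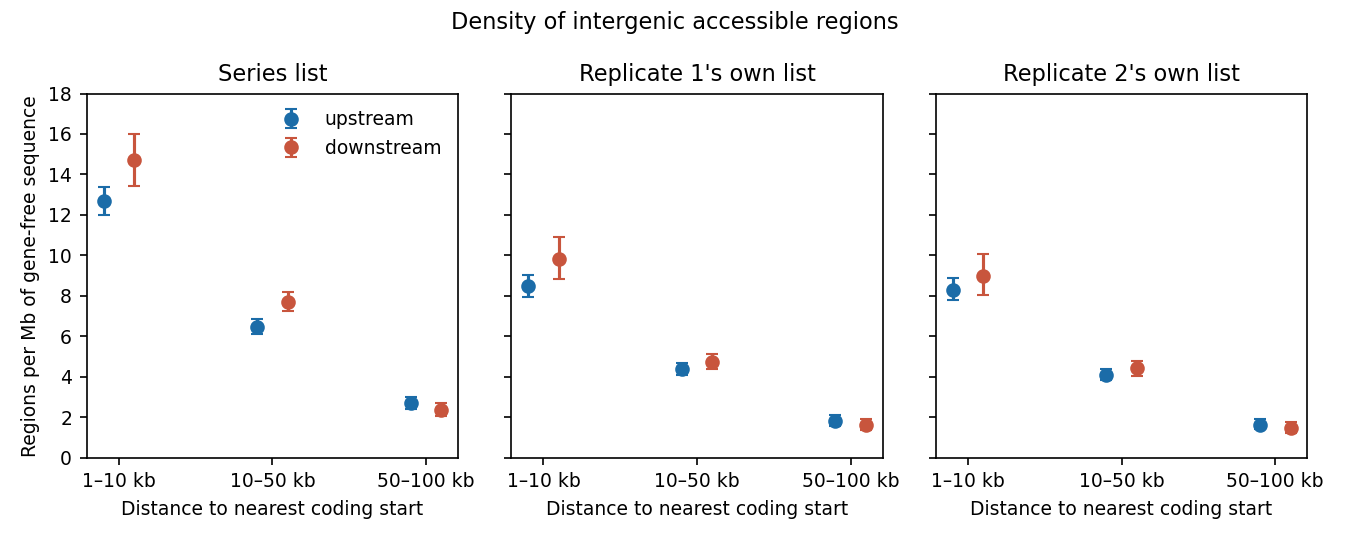
Accessible regions per Mb of gene-free sequence (y) by distance to the nearest protein-coding start (x), upstream and downstream, in the series list and in each replicate's own list; points are densities and bars exact Poisson 95% intervals. Density fell by distance class in each panel, from 12.7 and 14.7 per Mb at 1 to 10 kb to 2.69 and 2.37 per Mb at 50 to 100 kb in the series list, upstream and downstream.

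Regions far from genes had a somewhat higher fold, and distance classes showed no order by significance. Fold is the authors' ratio of a peak's signal over local background, on a scale particular to each list. The median fold was 6.23 at 1 to 10 kb, 7.07 at 10 to 50 kb and 7.45 at 50 to 100 kb. Across the 4690 regions, distance and fold had a Spearman rho of 0.203 (0.244 and 0.232 in the lists of replicates 1 and 2), as a description over regions that share libraries. The authors' −log10 p showed no such order, with medians of 38.1, 35.8 and 39.8 and a rho with distance of -0.00355. In the longer overlap list, which was thresholded less strictly, the difference in median fold between the farthest and the nearest class changed sign, from 1.23 to -0.479, so the order of fold holds for the regions that passed the IDR threshold and not for the longer list. Width was also somewhat higher far from genes, with medians of 425, 456 and 509 bp and a rho with distance of 0.115. The GC content of these summit windows was near 51% in each distance class (medians 51.7, 51.7 and 50.8%), beside 63.7% in promoter regions.

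Intergenic regions were found again in the replicates less often than the series as a whole. Regions present in the list of both replicates made up 65.3% of all regions of the series, and 52.4% of the intergenic regions (2457 of 4690, 51.0 to 53.8%). Promoter regions stood at 79.9%. Against the other distal regions the intergenic ones stood close: intronic regions were shared at 49.7%, a difference of 2.68 percentage points (Newcombe 95% interval 0.803 to 4.56), and regions beyond 100 kb at 49.7%, a difference whose interval (-2.69 to 8.03) included 0. Replicate 1's list held 64.4% of the intergenic regions and replicate 2's 60.3%, and 27.8% were in neither. The conservative list of the series, which is not shorter (4777 regions met the rule in it), held 88.3% of the intergenic regions. Sharing was 53.6, 51.1 and 53.9% from the nearest to the farthest distance class. It stood at 86.0% among intergenic regions in the upper 50% of the whole series by fold and at 26.2% in the overlap list.

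The replicates agreed closely in the height of a region, and sharing followed significance. For the 4137 intergenic regions with a record in both replicates' ranked lists, fold in replicate 1 and fold in replicate 2 had a Spearman rho of 0.91, and −log10 p a rho of 0.929. Replicate 1 had the higher −log10 p in 2745 of them and replicate 2 in 1387. Of 4 equal sets of intergenic regions ordered by −log10 p, the lowest had 0.597% in both replicates' lists, the second 25.3%, the third 84.0% and the highest 99.6%. The series list was called on the pooled reads of the same libraries, so this order is a description of where the regions repeat and not an independent check.

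GATA, KLF, CTCF and NF-E2 words were more frequent at the summits than in the flanks. GATA words and the GATA pair were less frequent in intergenic than in intronic regions, and CTCF was more frequent. A GATA word lay in the summit window, 100 bases to each side, of 42.5% of the intergenic regions (41.1 to 43.9%), 29.1% of 8541 flanking windows 1 kb away and 33.0% of all regions of the series. In intronic distal regions the share was 54.5%, so that intergenic minus intronic was -12.0 percentage points (-13.9 to -10.1), and beyond 100 kb it was 61.5%. The same difference was -13.8 points in replicate 1's own list and -14.1 in replicate 2's. The GATA pair was in 11.9% of intergenic windows, 17.9% of intronic ones, 22.5% of those beyond 100 kb, 2.04% of flanks and 9.44% of the series, and intergenic minus intronic was -5.99 points (-7.30 to -4.67). The CTCF consensus went the other way, with 13.9% of intergenic windows (13.0 to 15.0%) against 9.85% of intronic ones, 5.62% of those beyond 100 kb, 0.141% of flanks and 6.96% of the series. The difference from intronic regions was 4.10 points (2.88 to 5.34), and 3.61 and 2.93 points in the lists of replicates 1 and 2. With CTCF windows left out of both classes, GATA words lay in 46.0% of intergenic and 58.1% of intronic windows.

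The remaining motifs differed by less than 2 points between intergenic and intronic regions. KLF words lay in 19.3% of intergenic and 19.5% of intronic windows, a difference of -0.267 points (-1.75 to 1.23), beside 7.88% of flanks, 29.4% of the series and 40.0% of promoter windows. NF-E2 words lay in 2.43% of intergenic and 2.73% of intronic windows, 0.269% of flanks and 1.54% of the series. AP-1 words, including those inside an NF-E2 word, stood at 6.97% of intergenic windows, 3.81% of flanks and 5.08% of the series. RUNX words (TGTGGTT, where C may stand at the third and the last letter) were in 11.2% of intergenic windows, close to the 9.39% of flanks and 9.55% of the series. STAT5 words (TTCCNAGAA, TTCCNGGAA, TTCTNAGAA, TTCTNGGAA) were in 3.07% of intergenic windows, 2.20% of intronic ones (0.872 points, 0.273 to 1.5), 2.79% of flanks and 2.51% of the series. NF-Y words (CCAATCA, where G may stand at the last letter and the one before it) were in 8.32%, 7.12% of intronic windows, 6.90% of flanks and 14.1% of the series. C/EBP words (TTGCACAAC, TTGCACAAT, TTGCGCAAC, TTGCGCAAT) were in 0.341% of intergenic windows, 0.199% of flanks and 0.221% of the series. Of the 4690 windows, 25.5% held none of the 10 motifs.

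Motif content also varied within the intergenic regions. GATA words were in 42.4% of windows at 1 to 10 kb, 40.8% at 10 to 50 kb and 50.8% at 50 to 100 kb, the farthest class being 8.42 points above the nearest (3.45 to 13.4). CTCF was most frequent in the middle class, at 13.0, 15.5 and 10.3%. Upstream windows held GATA words in 44.6% and downstream ones in 38.8%, a difference of 5.85 points (2.91 to 8.75), while CTCF stood at 12.9% upstream and 15.8% downstream. Of 653 regions whose CTCF matches lay on 1 strand, the match pointed to the nearest coding start in 291 (44.6%, 40.8 to 48.4%), an interval that lies below an even split.

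**Figure D2:**
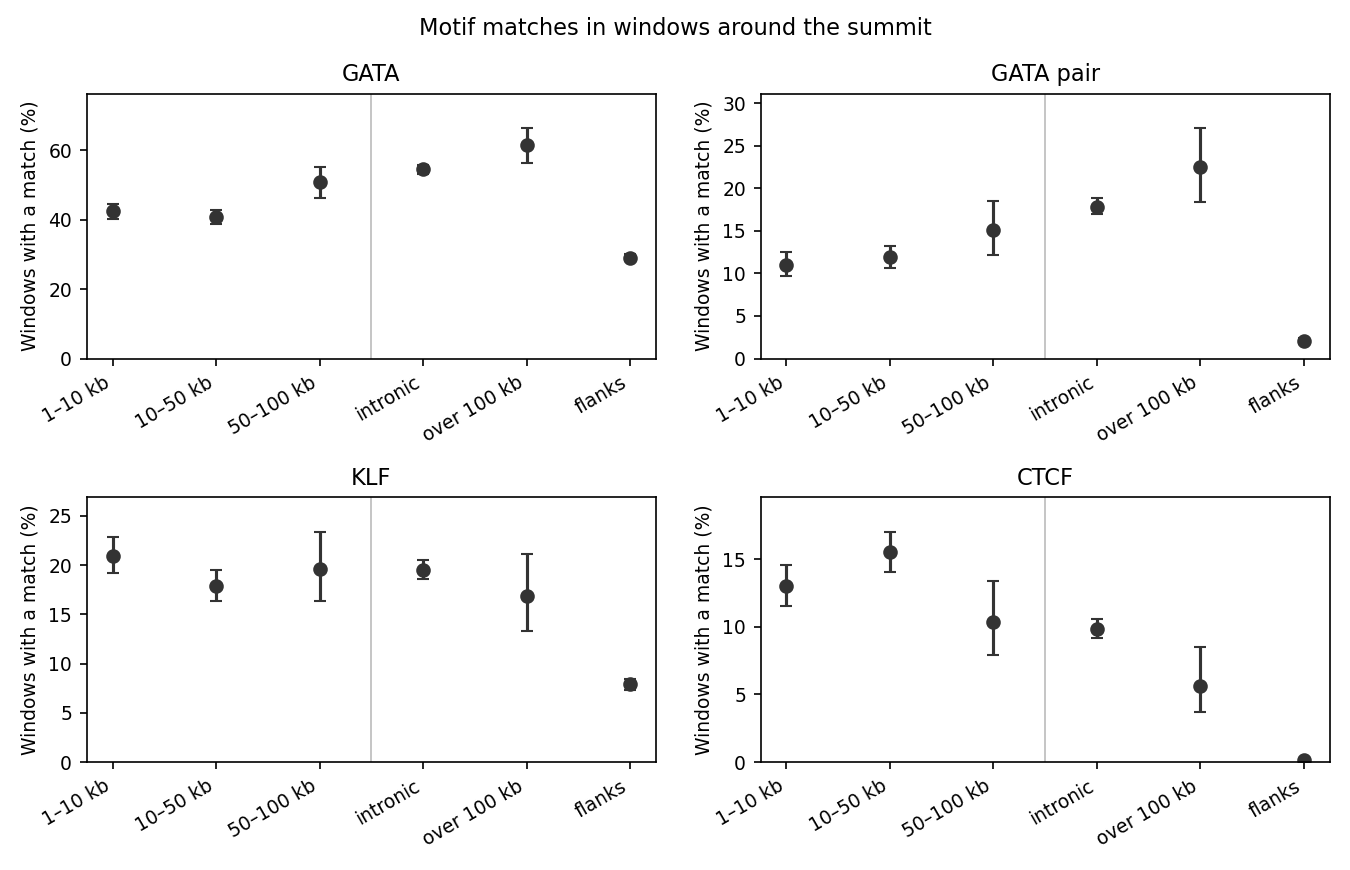
Percentage of summit windows (y) with a match to GATA, the GATA pair, KLF and CTCF for the 3 distance classes of intergenic regions (left of the line) and for intronic distal regions, intergenic regions over 100 kb away and flanks 1 kb from the summits (x); bars are Wilson 95% intervals, and the y axes differ. GATA stands higher in intronic than in intergenic windows (54.5 against 42.5% over all distances) and CTCF lower (9.85 against 13.9%).

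Regions with CTCF and regions with a GATA pair differed in significance and in how often they repeated. CTCF regions had a median −log10 p of 28.2 and 33.0% of them were in both replicates' lists, against 55.5% of regions without CTCF (-22.5 points, -26.3 to -18.5). GATA pair regions had a median −log10 p of 63.8 and a sharing of 68.9%, against 50.2% without (18.8 points, 14.5 to 22.8). Within the 4 sets ordered by −log10 p the gaps were smaller. CTCF regions stood below regions with neither motif in every set but the highest, with intervals that overlapped in each set. GATA pair regions stood above regions with neither in the third set only. In the third set 77.7% of CTCF regions (70.6 to 83.5%) and 89.8% of GATA pair regions (83.4 to 94.0%) were shared, beside 84.4% with neither. In the second set it was 19.2% and 22.6%, beside 27.1% with neither. In the highest set it was 100% and 98.8%, beside 99.8% with neither. In the lowest set it was 0% for both, beside 0.817% with neither. In 4 equal sets ordered by fold, GATA pairs stood at 8.95% in the lowest and 18.3% in the highest, whereas CTCF stood at 11.2% in the lowest, 18.9 and 16.5% in the next and 9.21% in the highest.

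**Figure D3:**
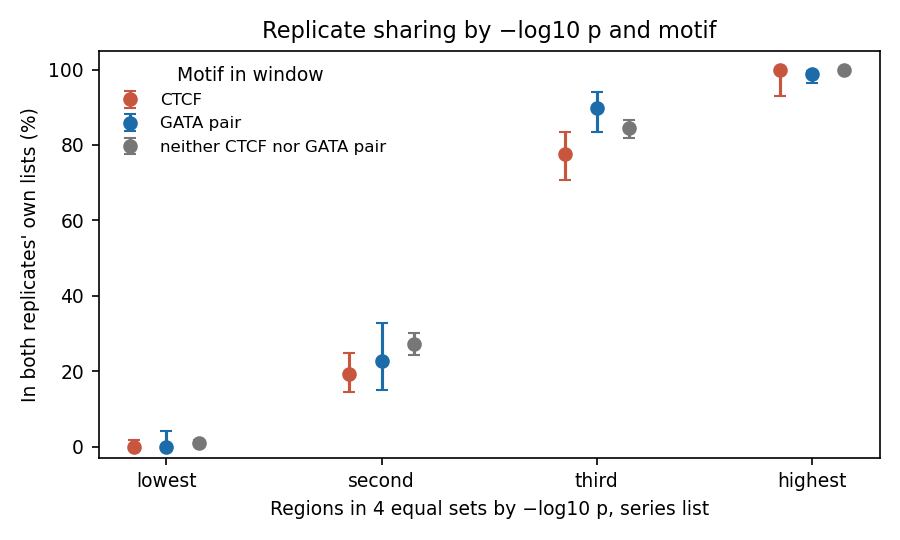
Percentage of intergenic regions in both replicates' own lists (y) in 4 equal sets ordered by −log10 p in the series list (x), for regions with a CTCF match, a GATA pair or neither; bars are Wilson 95% intervals. Sharing rises from near 0 in the lowest set to near 100% in the highest for each kind of region.

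The intergenic regions were nearest to a small share of genes, and mostly to genes with an accessible promoter. Of 21938 protein-coding genes, 2944 (13.4%) were nearest to at least 1 region. Of these, 1979 had 1 region, 570 had 2 and 395 had 3 or more. The genes with 3 or more accounted for 1571 regions (33.5%). A promoter was called accessible when a region of the series overlapped the 1 kb to either side of any of the gene's starts, which held for 45.8% of all protein-coding genes. For 69.4% of the intergenic regions (68.0 to 70.7%) the nearest gene had an accessible promoter. Among genes with an accessible promoter 19.7% were nearest to a region, and among the others 8.15%, a difference of 11.5 points (10.6 to 12.4).

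Gene-free sequence near accessible promoters held several times more regions at every distance. At 1 to 10 kb the density was 27.2 per Mb near accessible promoters (25.8 to 28.7) and 5.51 near the others. Without the 89 regions that themselves reached the 1 kb promoter window of their nearest gene, the former was 25.5. At 10 to 50 kb the densities were 13.9 and 3.45 per Mb, and at 50 to 100 kb they were 5.56 and 1.24. Regions near accessible promoters held CTCF less often (12.1 against 18.1%) and GATA words more often (44.2 against 38.6%), and more of them were in both replicates' lists (55.0 against 46.5%). Their median fold over all distances, 6.77, was close to the 6.74 of the others, but the classes differed. At 1 to 10 kb it was lower near accessible promoters (5.98 against 6.64). At 10 to 50 kb it was higher (7.24 against 6.73), and at 50 to 100 kb it was 7.50 against 7.35. Median −log10 p was higher near accessible promoters in each class, and 39.3 against 32.7 over all distances.

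**Figure D4:**
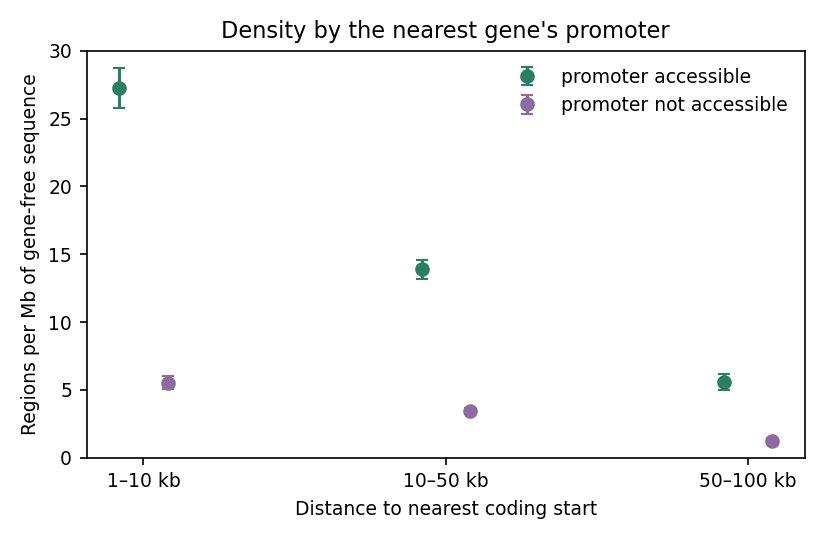
Intergenic regions per Mb of gene-free sequence (y) by distance to the nearest coding start (x), split by whether the nearest gene's promoter was accessible; bars are exact Poisson 95% intervals. The density near accessible promoters is higher in each class, from 27.2 against 5.51 per Mb at 1 to 10 kb to 5.56 against 1.24 per Mb at 50 to 100 kb.

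In 6 of the 7 erythroid lists, 30.8 to 60.0% of the genes were nearest to an intergenic region. The share was 13.4% of all genes and 19.7% of genes with an accessible promoter. Cell cycle (30.8%) and ribosomal protein genes (35.0%) lay in the same range, so such shares are not particular to erythroid genes. In the other erythroid list, organelle clearance during maturation, it was 2 of 11 genes (18.2%), and 1 in each replicate's own list. Of 28 erythroid transcription regulators 13 (46.4%) were nearest to at least 1 region, with 34 regions in all, 47.7 per Mb of their available sequence against 7.05 for all genes. The median per gene was 0, as for all genes, and each replicate's own list also gave 13 of the 28 genes. Of the 34 regions 28 lay upstream, 19 held a GATA word and 23 were in both replicates' lists. Over all intergenic regions these shares were 63.9, 42.5 and 52.4%. The median fold of the 34 regions, 6.26, was below the 6.76 of all intergenic regions. These lists were chosen with results of these data known, and the counts are a description.

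Lmo2, the bridging protein of the TAL1 complex, had the most regions of these regulators. Its 7 regions lay 25.3 to 76.7 kb upstream, 5 held a GATA word and 5 were in both lists. The highest, with its summit window at chr2:103888076-103888276, had a fold of 8.20. Klf13, a member of the KLF family, had 6 regions 2.84 to 60.7 kb upstream, each with a GATA word. The highest, 35.5 kb upstream at chr7:63974114-63974657, had a fold of 16.1 in the series and 14.0 and 15.2 in replicates 1 and 2. Myb, a regulator that sustains progenitor proliferation, had a region 35.9 kb upstream (chr10:21196528-21197328) with a fold of 14.2, and 12.4 and 14.4 in the replicates. Klf3, a repressor of the same family as KLF1, had 3 regions 35.0 to 40.0 kb downstream of its start, the highest with a fold of 11.5 and replicate values of 11.4 and 10.8. Rcor1, the CoREST corepressor, had 3 upstream regions with folds of 3.63 to 8.43, of which 1 was in both lists. Replicate 2 gave the higher value for Klf13 and Myb and replicate 1 for Klf3, so neither library was the higher throughout.

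A GATA word lay in 6 of the 10 regions of globin genes and 4 of the 7 of haem synthesis genes, beside 42.5% of all intergenic regions. Of 10 globin genes 6 were nearest to 10 regions, whose median fold of 4.37 was low for the class. Hbb-y, the embryonic beta-like globin at the end of the cluster next to its locus control region, had 3 upstream regions 6.01 to 12.7 kb away, and its own promoter was not accessible. Their folds were 8.01, 6.59 and 5.39 in the series, 7.51, 6.17 and 5.14 in replicate 1 and 8.16, 6.58 and 5.45 in replicate 2. All were in both lists, 2 held a GATA word, and the third held KLF and NF-E2 words. Of 13 haem synthesis genes 4 had 7 regions. Alas2, the first enzyme of haem synthesis in erythroid cells, had a region 31 kb upstream (chrX:150515882-150516852) with a fold of 13.0, and 11.8 in each of replicates 1 and 2. Cpox, coproporphyrinogen oxidase, had 3 regions 7.12 to 11.4 kb upstream, all in both lists, with folds of 8.03, 5.44 and 5.35. Fech, which inserts iron into the porphyrin ring, had 1 region 1.08 kb upstream with a GATA pair and a fold of 6.60, and 6.52 and 6.46 in the replicates.

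None of the regions of iron genes held a GATA word, where 42.5% of all intergenic regions did. Of 11 iron genes 6 had 1 region each, all upstream, and 5 were in both lists. Over all intergenic regions 63.9% lay upstream and 52.4% were in both lists. The iron genes had 14.9 regions per Mb of their available sequence, against 7.05 for all genes. The median fold was 9.48, but the regions of Steap3 (4.98) and Fth1 lay below the 6.76 of all intergenic regions. Slc11a2, the divalent metal transporter that moves iron out of endosomes, had the highest, 18.5 kb upstream at chr15:100443077-100444035, with a fold of 16.6 and replicate values of 14.8 and 15.7. Tfrc, the transferrin receptor, had one 10.8 kb upstream at chr16:32597838-32598416 with a fold of 14.3, and 12.5 and 13.6 in replicates 1 and 2. Both held a KLF word. Hmox1, haem oxygenase, had one 9.80 kb upstream at chr8:75083466-75084179 with a fold of 11.3, and 10.4 and 10.6 in the replicates, while its promoter was not accessible. The ferritin genes Ftl1 and Fth1 had regions 1.06 and 1.96 kb upstream with folds of 7.62 and 5.66, of which replicate 1 gave 7.74 and 5.41 and replicate 2 gave 6.99 and 5.53. The NF-E2 word seen in the sequences of Hmox1, Ftl1 and Fth1 was thus in 3 of the 6 iron regions, beside 2.43% of all intergenic regions. The words and the list were chosen with results of these data known, so this is a description and no contrast. In each of these 3 regions the replicates differed by less than 1 fold unit.

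**Figure D5:**
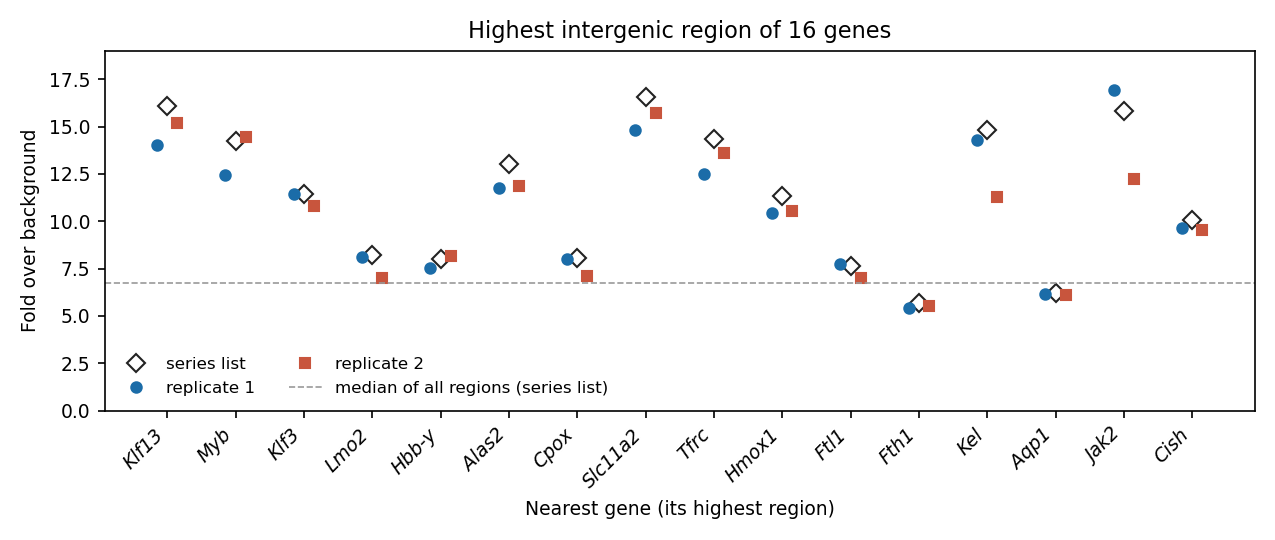
Fold over background (y) of the highest intergenic region nearest to each of the named genes (x), as given by the series list and by each replicate; the dashed line is the median of all intergenic regions in the series list, 6.76. Replicates lie close for most genes and farthest apart for Jak2, at 17.0 and 12.3.

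The regions of membrane genes had a median fold of 4.54 and those of signalling genes 6.15, beside 6.76 for all intergenic regions. Of 26 membrane and surface genes 14 had 25 regions, of which 18 held a GATA word, beside 42.5% of all intergenic regions. Replicate 1's own list gave 12 of these 26 genes a region and replicate 2's gave 9. Aqp1, the red cell water channel, had 6 regions with folds of 2.99 to 6.22, 5 of them upstream between 11.5 and 15.3 kb, and 5 held a GATA word. Kel, the Kell blood group protease, had the highest of the list, 24.0 kb upstream with a fold of 14.8, and 14.3 and 11.3 in replicates 1 and 2. Of 15 genes of erythropoietin signalling 5 had 12 regions, 9 of which lay downstream, beside 36.1% of all intergenic regions. Jak2, the kinase bound to the erythropoietin receptor, had a region 48.5 kb upstream (chr19:29202932-29203716) with a fold of 15.8, and 17.0 and 12.3 in the replicates. It was 1 of 12 intergenic windows with both a CTCF match and a GATA pair. Cish, a feedback inhibitor of STAT5 signalling, had 5 regions 5.44 to 14.0 kb downstream with folds of 3.54 to 10.1, 3 of them in both lists. Pim1, a survival kinase, had 3 regions 7.60 to 10.1 kb downstream with folds of 3.50 to 6.49, of which 1 was in both lists.

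Lists of cell cycle, ribosomal protein and other lineage genes were counted in the same way. Of 26 cell cycle genes 8 (30.8%) had 19 regions, led by Rrm2, a subunit of ribonucleotide reductase, with 7 regions of fold 3.34 to 8.57. Of 20 ribosomal protein genes 7 (35.0%) had 12 regions, but 4 had one in replicate 1's own list and 6 in replicate 2's. Genes with a region numbered 3 of 23 for stem and early progenitors, 3 of 16 for megakaryocytes, 4 of 21 for granulocytes and monocytes, 2 of 12 for macrophages, 1 of 14 for mast cells, basophils and eosinophils, 3 of 22 for T and NK cells, 2 of 15 for B cells, 1 of 13 for endothelium and stroma, 0 of 17 for hepatocytes and 1 of 15 for neurons. These shares lay on both sides of the 13.4% of all genes. In the lists of replicates 1 and 2 the count was 3 and 2 for granulocytes and monocytes, 1 and 1 for macrophages, 1 and 1 for T and NK cells, and 0 in both for mast cells, basophils and eosinophils and for endothelium and stroma. 

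Since the lists were chosen with results of these data known, the promoter counts below do not check the labelled cell type. Promoters of the listed genes were counted beside 45.8% accessible over all protein-coding genes. They were accessible in 26 of 28 erythroid regulators, 6 of 10 globin, 13 of 13 haem, 10 of 11 iron, 23 of 26 membrane, 10 of 15 signalling and 11 of 11 organelle clearance genes. For the cell cycle it was 24 of 26 and for ribosomal proteins 20 of 20. Among other lineages it was 4 of 23 stem, 5 of 16 megakaryocyte, 3 of 21 granulocyte and monocyte, 1 of 12 macrophage, 0 of 14 mast cell, basophil and eosinophil, 1 of 22 T and NK cell, 1 of 15 B cell, 1 of 13 endothelium and stroma, 0 of 17 hepatocyte and 3 of 15 neuron genes. Some regions near genes of other lineages were of high fold. Cebpe, a granulocyte regulator, had a region 6.19 kb downstream with a fold of 12.3 and a GATA pair, and 12.0 and 11.6 in replicates 1 and 2, with no accessible promoter. Cd34, a stem cell surface protein, had one 59.1 kb upstream with a fold of 13.2, and 12.9 and 11.4 in the replicates. Gp9, a platelet glycoprotein, had one with a fold of 11.3 that lay 0.086 kb from the start of a noncoding gene. Whether other cell types were in the libraries was not tested.

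The genes with the most intergenic regions were not among the lists. Plcl2, a phospholipase C-like protein, had 11 regions spread over 2.25 to 90.3 kb upstream with folds of 3.27 to 13.8, of which 6 held a GATA word and 6 were in both lists. The highest (chr17:50424755-50425830, 84.1 kb upstream) had 13.2 in each replicate. Picalm, a clathrin adaptor used in transferrin receptor uptake, had 10 regions 38.3 to 70.3 kb upstream, of which 7 held a GATA word. Irf2bpl and Pik3cg, the latter a catalytic subunit of phosphoinositide 3-kinase, had 9 each. Wdr26, Zfp217, Slc16a1, Btg2, Fasl and Mkrn1 had 8 each. Mkrn1, a ubiquitin ligase, had all 8 within 2.76 to 15.5 kb upstream, and 7 held a GATA word. Slc16a1, a lactate transporter, had 7 of its 8 in both lists. Of the 10 genes, Irf2bpl and Fasl lacked an accessible promoter. A gene with much available sequence has more room for regions: per 100 kb of it, Plcl2 had 9.42 regions, Mkrn1 27.9 and Btg2 25.1.

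Some of the regions of highest fold lay in sequence with copies elsewhere. The highest, near Abcb11 at chr2:69355472-69355731, had a fold of 45.5, and 40.8 and 40.0 in replicates 1 and 2. Of the 31-base words in its window, 57.9% also occur in the mitochondrial genome. The next were near Pak3 (36.0), Gm12394 (27.5), Frmd4a (25.0), Sfpq (24.0) and Gm21119 (23.7). The 31 bases at the summit occur 2 times in the genome for the Frmd4a region and 4 times for the Gm21119 region. Over all intergenic regions, 218 (4.65%) had such summit bases in more than 1 copy, against 2.57% of intronic and 15.5% of regions beyond 100 kb, and 3 shared words with the mitochondrial genome. The fold of a region in repeated sequence may hold reads of its copies, which peak lists cannot separate. Of the 5 regions near Fcgr3, 4 had summit bases in 3 copies. By −log10 p, regions near Eif4g2 (263.5) and Actb (245.3) were also among the 4 highest, and the Eif4g2 region lay 0.043 kb from a noncoding start.

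The distance rule counts only protein-coding starts. Of the 4690 regions, 303 lay within 1 kb of a start of another gene type, among them 96 at lincRNA, 64 at processed pseudogene and 45 at snRNA starts. At the edges of the rule, from 0.9 to 1 kb there were 31 intergenic regions with a median fold of 5.38, and from 1 to 1.1 kb there were 40 with 5.71. From 90 to 100 kb there were 48 with 7.46, and from 100 to 110 kb there were 18 with 6.69.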

How the data were processed

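ATAC-seq peak lists of 2 CFU-E libraries were used. The deposited listing says that the authors called mm10 peaks per replicate and on pooled reads. Aligner, caller, versions, Tn5 offsets and duplicate handling are not given in the sources used. The authors deposited for each peak a fold (a ratio over local background), a −log10 p and a score. The score was not used. Read depth is unknown.

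Records that overlapped or touched were merged, and a region took the highest fold and −log10 p of its records. Genes, starts and sequence came from GENCODE M21 and GRCm38. Sharing meant an overlap of at least 1 bp. Replicate values of a region came from each replicate's ranked list. Available sequence was every sequenced base outside genes in the same distance class. Motif searches covered both strands of the summit with 100 bases to each side, and flanks lay 1 kb from the summits. Intervals are exact Poisson, Wilson or Newcombe at 95%, treat regions as independent and cover counting error only. No p-value was computed, since there is 1 group.

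The members and the 19 gene lists (325 genes, 324 found) were chosen with earlier results of these data known. The motif words, the counts of sequence copies and the mitochondrial comparison were chosen with the same knowledge or after seeing the data. Named genes were the 10 with most regions, those of the 6 highest folds and 4 highest −log10 p, up to 5 per erythroid list and up to 3 per other list. Code was tested on simulated regions. Alternatives were other peak lists, a fold limit, outermost starts, summits, noncoding starts and other windows. Python 3.11.15, numpy 2.4.6, pandas 2.3.3, scipy 1.17.1 and matplotlib 3.10.9 were used.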

Additional observations from a re-analysis of the deposited data

How the results depend on the processing

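The number of regions was 9363 in the overlap list and 1826 among the upper 50% by fold, cut at the median of the whole series. It was 2924 to 3102 when 1 replicate was left out, which leaves the other replicate's own list. The density at 1 to 10 kb over that at 50 to 100 kb was 3.57, 3.40 and 4.18 in the overlap list, the upper 50% and with the outermost start of each gene. The upstream share was 65.0 to 65.7% with 1 replicate left out and 71.5% with outermost starts, where 69.9% of the available sequence was upstream. Sharing was 26.2% in the overlap list and 86.0% in the upper 50%. The difference in median fold was -0.479 and 0.555 in these lists. GATA words lay in 37.5% (overlap list), 47.2% (upper 50%), 46.8 to 47.0% (1 replicate left out) and 31.3% (50 bp to each side). Promoters were called anew from the regions of each setting. In the upper 50%, a promoter overlapped only by weaker regions thus counted as not accessible. The nearest promoter was accessible for 54.2% (upper 50%), 67.5 to 68.9% (1 replicate left out), 64.2% (outermost starts) and 67.8% (500 bp window). The causes were not tested. The other 43 alternative values of these results stayed within the main interval, the spread between replicates or 1.5 times the main count, among them the counts of erythroid regulators with a region, 12 to 17. Counts for 8 other gene lists moved by more than 1.5 times with 1 replicate left out, and stand beside those lists. No paired analysis was possible because the libraries form 1 group. Counting error over regions is the precision given, and weak regions depend on a depth that is unknown here.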
